A study of Mus musculus with 9 samples.

Results

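A set of 7 genes of T cell contact and cytotoxic programming was followed across bulk RNA sequencing of mouse CD4+ T cells: Sh2d1a, which encodes the adaptor SAP; the SLAM receptors Slamf1, Slamf6, Ly9, Cd84 and Cd48; and Crtam. They are 7 of 25160 genes in the deposited table, matched by symbol, and for each gene the RefSeq transcript with the highest total over the 9 libraries was used. Those totals ran from 959.5 counts for Sh2d1a to 34372 counts for Slamf1, and they chose the transcript without reference to any group.

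The cells were naive CD4+ T cells sorted from C57BL/6 spleens and cultured on plates coated with anti-CD3e at 1 µg/ml, an antibody that stimulates cells through their T cell receptor. The coating also held 19 µg/ml of a second antibody. In all, 3 groups of 3 libraries each were made: wild-type cells on an antibody against CD40L (anti-CD40L), cells titled KO with the genotype label cre on an isotype control antibody, and wild-type cells on the isotype antibody. The series describes the KO mice as lacking CD40L in T cells. The sources used here do not give the Cre driver, the age of the mice, the culture time or whether animals were pooled.

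SLAM receptors are immunoglobulin-type surface molecules through which lymphocytes recognise each other. Slamf1, Slamf6, Ly9 and Cd84 bind copies of themselves on the next cell, while Cd48 is held by a lipid anchor, has no signalling tail and binds CD2 and CD244. SAP is a small adaptor made mainly of an SH2 domain; it docks on the tails of SLAM receptors, brings in the kinase FYN, and is needed for lasting contact between follicular helper T cells and B cells and for the development of natural killer T cells. CRTAM is a nectin-like receptor of activated lymphocytes that binds CADM1, and in mice it marks CD4+ T cells with cytotoxic traits.

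SAP docks on the immunoreceptor tyrosine-based switch motif (ITSM), in which a tyrosine is preceded by a threonine and followed by a valine or isoleucine at fixed distances. The coding sequences of the receptors are shown here because this motif is what links the receptors to the adaptor whose transcript changed. Searched in frame on the coding strand of the GENCODE vM21 transcripts (GRCm38), the motif occurred 2 times each in Slamf1, Slamf6, Ly9 and Cd84. The 8 stretches are given 5′ to 3′ with the tyrosine codon in capitals.
Slamf1, codon 288, exon 5, chr1:171792333-171792362, plus strand: agccttactattTATgcccaagtacagaaa
Slamf1, codon 335, exon 7, chr1:171799582-171799611, plus strand: cccaccacagttTATgccagtgtgacactg
Slamf6, codon 295, exon 6, chr1:171939431-171939460, plus strand: gggaacactgtgTATgcacaagtcactcgt
Slamf6, codon 319, exon 7, chr1:171941658-171941687, plus strand: tccatgacaattTACtccatagttaatcat
Ly9, codon 587, exon 8, chr1:171593906-171593935, minus strand: gcaatcactccaTATgataaagtggatggg
Ly9, codon 625, exon 9, chr1:171593432-171593461, minus strand: tcaaatacaatcTACtgctctgtgcagaag
Cd84, codon 265, exon 6, chr1:171884599-171884628, plus strand: aagaaaacagtaTATgctgtagtttcaaga
Cd84, codon 300, exon 7, chr1:171885595-171885624, plus strand: gtgaccaccattTATtcctcagtgcagctt

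These 8 matches lay between 80.5% and 97.7% of the way along the coding sequence, that is, near the carboxyl end. Cd48 held 1 match at codon 107 of 240, in exon 2 and far from that end, and Crtam and Sh2d1a held none. Among 7465 mouse coding sequences of 987 to 1962 bases, the length range of these 4 receptors, 7.5% held at least 1 match and 0.4% held 2 or more. A match is a pattern of letters and was not tested as a docking site.

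Library depth over genes ran from 5316482 to 11226188 counts on anti-CD40L, from 9298654 to 15565711 in the libraries labelled KO and from 8796453 to 11007159 in wild-type isotype cells. Anti-CD40L replicate 3, the shallowest, stood apart: it had a count for 11673 genes against 14290 to 17428 in the other libraries. On the first principal component of the log2 CPM values, which held 54% of their variance, it lay at 86.96. The other libraries lay between -19.1 and 10.22. Values without anti-CD40L replicate 3 are therefore given for the main results, and whether depth alone sets it apart was not tested. The T cell genes Cd3e, Cd3d, Cd3g, Cd4, Cd5, Cd28 and Lat were present in every group, with summed levels of 3857 to 3902, 3722 to 3976 and 3806 to 4190 CPM (counts scaled to a common library size) in anti-CD40L, KO-labelled and wild-type isotype libraries. The sums cover moves of single genes. Against wild-type isotype, Lat was called lower on anti-CD40L (log2 fold change -0.47; edgeR quasi-likelihood F test, adjusted p = 0.0189). The other T cell genes were not called, with Cd3d at -0.32 and Cd28 at 0.32. The deleted gene, Cd40lg, stood at 136 to 150.2 CPM in libraries labelled KO and 142 to 189 CPM in wild-type isotype libraries and was not called (log2 fold change -0.17; edgeR quasi-likelihood F test, adjusted p = 0.935). Which part of Cd40lg was deleted the sources used here do not say, so directions from these libraries rest on the label KO.

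All 7 genes passed the filter on low counts. Per kilobase of the transcript counted, which allows levels of different genes to be set side by side, Slamf1 was the most abundant and Sh2d1a the least in all 3 groups. In wild-type isotype cells the mean level was 129.7 CPM per kb for Slamf1, 72.0 for Ly9, 54.0 for Cd48, 31.5 for Cd84, 24.8 for Slamf6, 19.98 for Crtam and 12.8 for Sh2d1a. Cells on anti-CD40L and cells labelled KO had the same order, and in none of the 3 groups did the libraries of 2 neighbouring genes in this order overlap. The closest neighbours were Slamf6, at 21.8 to 23.4, and Crtam, at 19.4 to 21.6 CPM per kb, both among KO-labelled libraries. This order holds for the transcripts counted, since a level per kb depends on the length used. Cd84 NM_001289470, of 1503 bases, held 99.67% of the counts of the Cd84 transcript used, of 3291 bases. With the shorter length Cd84 would stand higher, so its place and its lack of overlap rest on the transcript chosen.

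The comparison given first asked how binding of CD40L by a plate-bound antibody alters these transcripts in wild-type cells. The adaptor and CRTAM fell: 2 of the 7 genes passed the test, Sh2d1a and Crtam, both lower. No receptor passed it, although Slamf6 was lower in every anti-CD40L library than in any isotype library. Over all 11256 genes tested, 9.37% were called in either direction and 6.46% as lower (edgeR quasi-likelihood F test, p-values adjusted by Benjamini-Hochberg over all genes, threshold 0.05). These genes were picked with results of this comparison already known, so their p-values place them among all genes and do not stand as independent evidence. In bulk RNA, fewer cells that carry a transcript and less of it per cell cannot be told apart.

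Sh2d1a (NM_001313688, chromosome X, 42502565 to 42522097, GRCm38) stood at 5.38, 4.46 and 5.35 CPM in anti-CD40L replicates 1 to 3 and at 12.6, 9.79 and 11.5 CPM in wild-type isotype replicates 1 to 3. The groups did not overlap, and the highest anti-CD40L library lay well below the lowest isotype library. Mean levels were 5.06 ± 0.521 CPM on anti-CD40L and 11.3 ± 1.43 CPM on isotype (SD, n = 3 each), from 132 and 344 counts in all. SAP transcript was thus 2.24-fold lower on anti-CD40L (log2 fold change -1.16, SE 0.22, 95% interval -1.64 to -0.68; edgeR quasi-likelihood F test, adjusted p = 0.00599). Without anti-CD40L replicate 3 the log2 fold change was -1.19 (edgeR quasi-likelihood F test, adjusted p = 0.00858).

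Crtam (NM_019465, chromosome 9, 40972798 to 41004628) stood at 43.8, 57.0 and 53.7 CPM in anti-CD40L replicates 1 to 3 and at 87.6, 101.3 and 110.9 CPM in wild-type isotype replicates 1 to 3. All 3 anti-CD40L libraries lay below all 3 isotype libraries. Mean levels were 51.5 ± 6.85 CPM on anti-CD40L and 99.9 ± 11.7 CPM on isotype (SD, n = 3 each), a 1.94-fold lower level on anti-CD40L. On the log2 scale the difference was -0.96 (SE 0.12, 95% interval -1.21 to -0.71; edgeR quasi-likelihood F test, adjusted p = 0.000322), and it was -0.98 without anti-CD40L replicate 3.

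**Figure D1:**
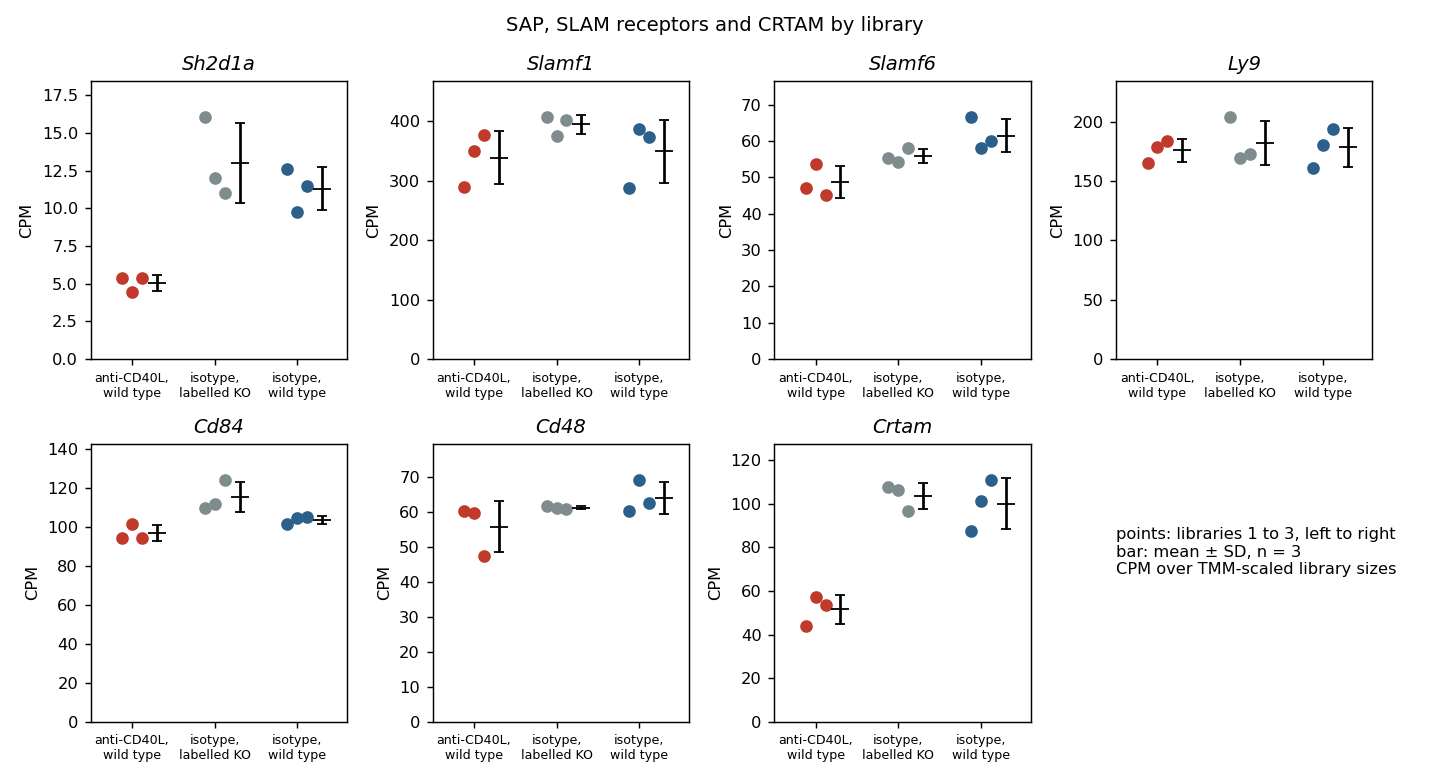
Levels in CPM over TMM-scaled library sizes for each gene (vertical axes start at 0) by group: points are libraries 1 to 3 and bars are the mean ± SD (n = 3). Sh2d1a and Crtam lie lower in all 3 anti-CD40L libraries than in any isotype library, while the groups of Slamf1 and Ly9 overlap.

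Among the receptors with ITSM tails, Slamf6 had the lowest fold change. Slamf6 (NM_030710, chromosome 1, 171917458 to 171948958), a receptor that binds itself and modulates helper T cell and B cell contact, stood at 47.2, 53.8 and 45.3 CPM on anti-CD40L and 66.6, 58.1 and 59.99 CPM on isotype. Its groups did not overlap, and the change missed the threshold (log2 fold change -0.33, SE 0.10, 95% interval -0.55 to -0.11; edgeR quasi-likelihood F test, adjusted p = 0.0577). DESeq2 called it at 0.036 and limma-voom with quality weights at 0.0479, and it was called at 0.0368 without anti-CD40L replicate 2 (Benjamini-Hochberg adjusted p), within a range of 0.0133 to 0.222 over all 18 alternatives.

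Slamf1 (NM_013730, chromosome 1, 171767131 to 171801184), the founding SLAM receptor, stood at 289.6, 349.1 and 376.4 CPM on anti-CD40L and 288.4, 386.8 and 372.9 CPM on isotype. Replicate 1 was the lowest library in both groups, and the groups overlapped. Its log2 fold change was -0.05, with a 95% interval of -0.30 to 0.21 (edgeR quasi-likelihood F test, adjusted p = 0.838). Ly9 (NR_102726, chromosome 1, 171588613 to 171607410), which restrains innate-like T cells in mice, stood at 165.1, 179.1 and 183.6 CPM on anti-CD40L and 161.3, 180.5 and 193.9 CPM on isotype, again overlapping. Its log2 fold change was -0.02 (95% interval -0.23 to 0.18; edgeR quasi-likelihood F test, adjusted p = 0.914).

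Cd84 (NM_013489, chromosome 1, 171839697 to 171890718), a self-binding receptor that supports T and B cell adhesion, stood at 94.4, 101.4 and 94.2 CPM on anti-CD40L and 101.4, 104.7 and 105.2 CPM on isotype. The groups touched without overlapping, as the highest anti-CD40L library lay just under the lowest isotype library. Its log2 fold change was -0.10 (95% interval -0.28 to 0.07; edgeR quasi-likelihood F test, adjusted p = 0.454). Cd48 (NM_007649, chromosome 1, 171681245 to 171705258), the lipid-anchored ligand of CD2 and CD244, stood at 60.4, 59.7 and 47.6 CPM on anti-CD40L and 60.4, 69.3 and 62.6 CPM on isotype. Its lowest value was that of the shallow anti-CD40L replicate 3, and the log2 fold change was -0.19 (95% interval -0.42 to 0.04; edgeR quasi-likelihood F test, adjusted p = 0.281). Without that library it was -0.08 (edgeR quasi-likelihood F test, adjusted p = 0.585).

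Across the 5 receptors the 95% intervals of the log2 fold change reached no lower than -0.55 and no higher than 0.21. A group of 4 of the 7 genes, Sh2d1a, Crtam, Slamf6 and Cd84, were lower in every anti-CD40L library than in any isotype library, where 17.2% of all genes tested had such a pattern. All 7 fold changes were below 0, as were those of 51.8% of all genes tested, and the median was -0.19 over the 7 genes and -0.01 over all genes tested.

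**Figure D2:**
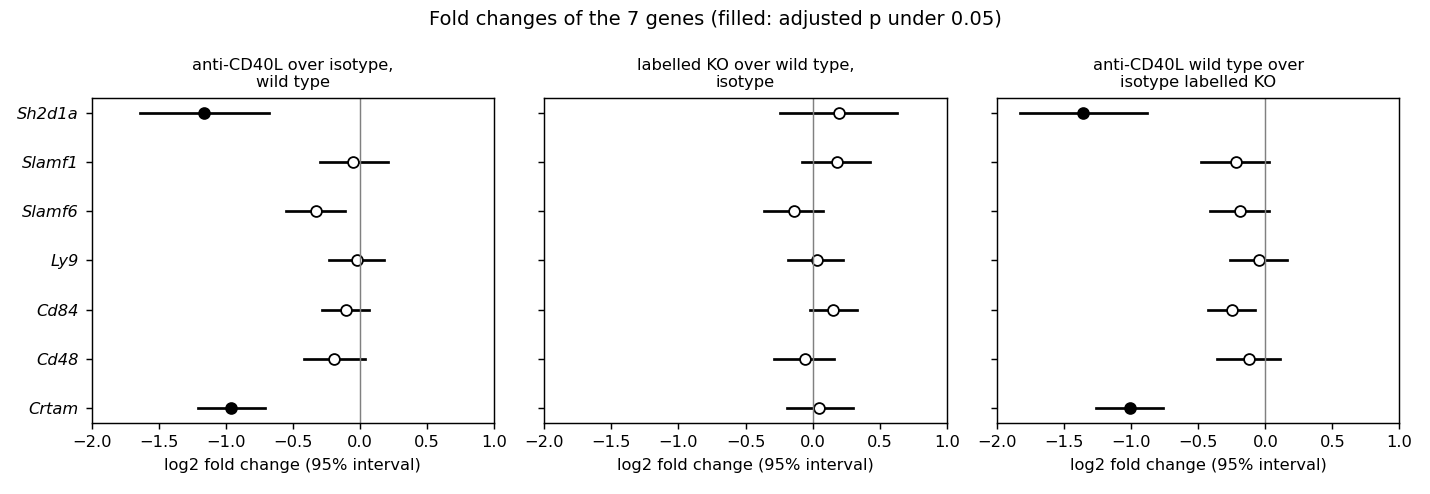
Log2 fold changes (points) with 95% intervals (lines) of the 7 genes in the 3 comparisons; filled points have an adjusted p under 0.05 by edgeR. Sh2d1a at -1.16 and Crtam at -0.96 stand clear of 0 on anti-CD40L, and all 7 intervals include 0 in the libraries labelled KO against wild type.

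The second comparison asked whether T cells labelled as lacking CD40L differ from wild-type cells on the isotype antibody. None of the 7 genes was called, as was none of all genes tested (0%; edgeR quasi-likelihood F test). Over all genes, 649 had an unadjusted p under 0.05, which is 5.77%, while none of the 7 had one, and the DESeq2 test called 42 genes with none of the 7 among them. Sh2d1a stood at 16.04, 12 and 11.01 CPM in KO-labelled replicates 1 to 3, against the isotype values given above, with a log2 fold change of 0.20 (95% interval -0.24 to 0.63; edgeR quasi-likelihood F test, adjusted p = 0.946). Crtam stood at 107.9, 106.1 and 96.8 CPM in KO-labelled libraries, with a log2 fold change of 0.05 (95% interval -0.19 to 0.30; edgeR quasi-likelihood F test, adjusted p = 0.985). Both genes overlapped between the groups.

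The receptors differed little between KO-labelled and wild-type isotype cells. In KO-labelled replicates 1 to 3, Slamf1 stood at 406.6, 375.6 and 401.3 CPM, Slamf6 at 55.4, 54.2 and 58.1 CPM, Ly9 at 203.8, 169.6 and 172.9 CPM, and Cd48 at 61.8, 61.2 and 61.0 CPM, each overlapping the wild-type isotype libraries. The log2 fold changes of the receptors against wild type were 0.18 for Slamf1, -0.14 for Slamf6, 0.03 for Ly9, 0.15 for Cd84 and -0.06 for Cd48, and their 95% intervals spanned -0.36 to 0.43 in all. Cd84 was the only one of the 7 genes without overlap, at 109.9, 111.9 and 124.1 CPM in libraries labelled KO and 101.4 to 105.2 CPM in wild type; 7.61% of all genes tested were higher in every KO-labelled library. It was not called (edgeR quasi-likelihood F test, adjusted p = 0.881).

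The third comparison set anti-CD40L wild-type cells against isotype cells labelled KO, and it equals the difference between the first 2 fold changes, which share the wild-type isotype libraries. Sh2d1a was lower on anti-CD40L, at 5.06 ± 0.521 CPM against 13.0 ± 2.67 CPM in the libraries labelled KO (SD, n = 3 each). The difference on the log2 scale was -1.36 (SE 0.22; edgeR quasi-likelihood F test, adjusted p = 0.00226). Crtam was lower too, at 51.5 ± 6.85 CPM against 103.6 ± 5.96 CPM (SD, n = 3 each), with a log2 fold change of -1.01 (SE 0.12; edgeR quasi-likelihood F test, adjusted p = 0.000246). These 2 of the 7 genes were called, both lower, where 5.04% of all genes tested were called lower.

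No receptor was called in the third comparison. Cd84 came nearest, at 96.7 ± 4.12 CPM on anti-CD40L and 115.3 ± 7.70 CPM in the libraries labelled KO (SD, n = 3 each), with a log2 fold change of -0.25 (95% interval -0.43 to -0.08; edgeR quasi-likelihood F test, adjusted p = 0.078). The adjusted p of Cd84 ran from 0.0524 to 0.234 over the alternatives. Slamf1 had a log2 fold change of -0.22, Slamf6 of -0.19, Cd48 of -0.12 and Ly9 of -0.05. In all, 5 of the 7 genes, all but Slamf1 and Ly9, were lower in every anti-CD40L library than in any library labelled KO, against 15.9% of all genes tested.

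The deposited table holds 20 transcripts for the 7 genes, and they were compared because receptor tails and ends can differ between transcripts. The 5 Sh2d1a transcripts held nearly the same counts, from 89.5% to 100% of the most counted one in total, and the 2 Crtam transcripts likewise, at 99.1%. The change of these 2 genes was therefore nearly the same whichever transcript was taken. The coding Ly9 transcript NM_008534 held 99.65% of the counts of the noncoding NR_102726 that had the highest total.

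Slamf6 was the gene whose result turned on the transcript. NM_001347186 held 90.5%, 83.3% and 85.0% of the counts of NM_030710 in anti-CD40L libraries, against 106%, 98.1% and 92.6% in libraries labelled KO and 89.0%, 92.6% and 100.7% in wild-type isotype libraries. Anti-CD40L libraries were lower than all KO-labelled libraries and overlapped wild-type isotype libraries at the top of their range. An alternative fit took the second transcript for all 8193 genes with several, not for Slamf6 alone. With NM_001347186 thus in its place, Slamf6 was called on anti-CD40L (log2 fold change -0.45, SE 0.10; edgeR quasi-likelihood F test, adjusted p = 0.0165). It was then also called against the libraries labelled KO (log2 fold change -0.38, SE 0.10; edgeR quasi-likelihood F test, adjusted p = 0.0445). The third transcript, NM_001347187, gave -0.46 and -0.41 in these comparisons, in a fit that took the third transcript of every gene that has one.

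The Cd84 transcript NM_001252472 held 23.9% of the counts of NM_013489 in total. Its share was 27.3%, 22.8% and 9.34% in anti-CD40L replicates 1 to 3, from 21.6% to 27.8% in libraries labelled KO and from 20.8% to 23.9% in wild-type isotype libraries. The low value belongs to the shallow anti-CD40L replicate 3, and the groups overlapped. Slamf1 NM_001360898 held 39.3% to 40.4% of NM_013730 on anti-CD40L, 37.3% to 45.6% in libraries labelled KO and 42.3% to 43.4% in wild-type isotype libraries. Since transcripts of a gene can hold nearly equal counts in the table, these shares are not isoform proportions.

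**Figure D3:**
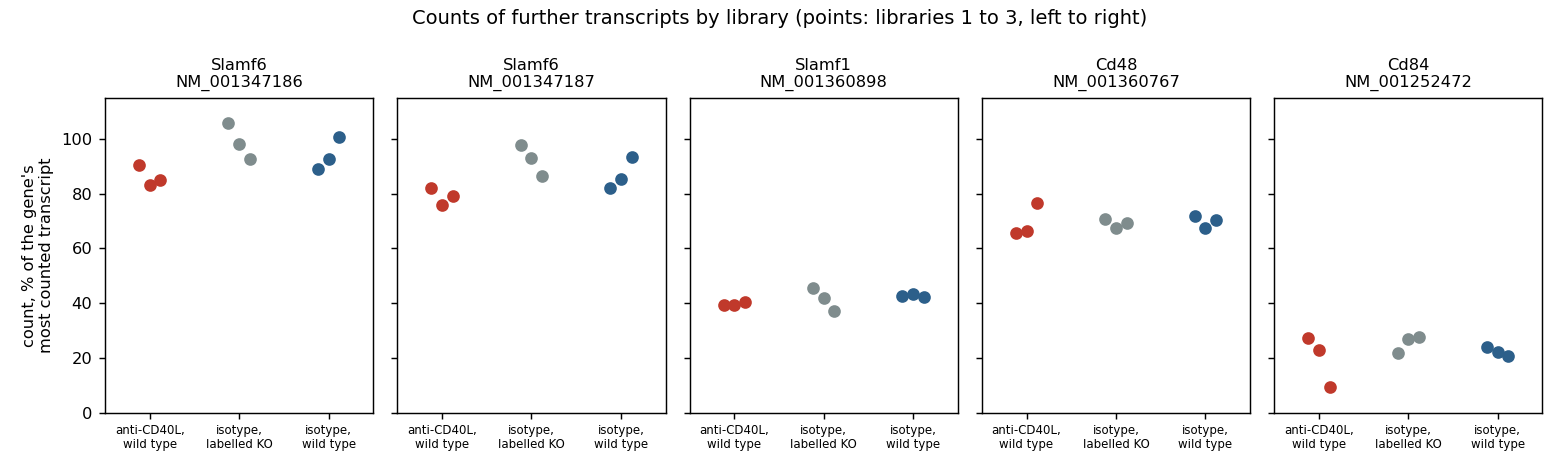
Counts of a further transcript as a percentage of the most counted transcript of the same gene, by library (points, libraries 1 to 3 from left to right; the axis starts at 0). Anti-CD40L libraries lie at 83.3% to 90.5% for Slamf6 NM_001347186, and anti-CD40L replicate 3 stands alone at 9.34% for Cd84 NM_001252472.

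The partners of these genes were read from a list of 43 genes, of which 31 had enough counts to test. On anti-CD40L 4 of the 31 fell and none rose, Inpp5d, Cd96, Bcl6 and Prf1, where 6.46% of all genes tested were called lower and 9.37% in either direction. The median log2 fold change was -0.14 for the partners and -0.01 over all genes tested. In the libraries labelled KO against wild type edgeR called none, and 2 of the 31, Nfkb1 and Cd96, had an unadjusted p under 0.05, near the 5.77% of all genes tested. DESeq2 called Nfkb1 there, an NF-kappa B subunit of SLAM signalling, at 1418 ± 5.22 CPM in libraries labelled KO and 1206 ± 23.4 CPM in wild type (SD, n = 3 each; log2 fold change 0.23, DESeq2 adjusted p = 0.00816; edgeR quasi-likelihood F test, adjusted p = 0.576). Against the libraries labelled KO 3 of the 31 were lower on anti-CD40L, Inpp5d, Bcl6 and Prf1, where 5.04% of all genes tested were called lower. The first count was 1 without anti-CD40L replicate 1, and 2 without any 1 of the 3 wild-type isotype libraries. The third was 1 without KO-labelled replicate 1 or 2, or without anti-CD40L replicate 1 or 3.

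Of the other SLAM receptors, only Slamf7 was tested, at 36.3 ± 4.25 CPM on anti-CD40L and 39.3 ± 2.26 CPM on isotype (SD, n = 3 each). It was not called (edgeR quasi-likelihood F test, adjusted p = 0.625). Cd244a, the second receptor for CD48, had 0 counts on anti-CD40L, 7 in libraries labelled KO and 1 in wild-type isotype libraries, while Slamf8 had none in any group and Slamf9 had 1 count in all. Sh2d1b1, which encodes the related adaptor EAT-2, had 4, 8 and 7 counts in anti-CD40L, KO-labelled and wild-type isotype libraries, and Sh2d1b2 had none. Cd2, the main binding partner of CD48 on T cells, was well expressed, at 226.2 ± 25.8 CPM on anti-CD40L and 263.1 ± 36.7 CPM on isotype (SD, n = 3 each), and was not called (log2 fold change -0.22; edgeR quasi-likelihood F test, adjusted p = 0.318).

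Of 14 signalling molecules below SAP and the SLAM receptors, 1 fell on anti-CD40L, a share near the 6.46% called lower over all genes tested. Inpp5d, the lipid phosphatase SHIP-1 that can bind SLAM receptor tails, stood at 52.3, 71.7 and 53.1 CPM on anti-CD40L and 88.1, 97.7 and 94.9 CPM on isotype. The groups did not overlap (log2 fold change -0.66, SE 0.14; edgeR quasi-likelihood F test, adjusted p = 0.00938). It was also lower than in libraries labelled KO, by -0.61 on the log2 scale (edgeR quasi-likelihood F test, adjusted p = 0.0147), a call lost without 4 single libraries, with adjusted p up to 0.0716 without anti-CD40L replicate 1. Fyn, the kinase that SAP recruits, stood at 530.1, 617.6 and 589.1 CPM on anti-CD40L and 615.6, 746.8 and 709.6 CPM on isotype. Its groups overlapped by 1 pair of libraries, and it was not called (log2 fold change -0.25, 95% interval -0.45 to -0.06; edgeR quasi-likelihood F test, adjusted p = 0.0907), although DESeq2 called it at 0.0473. Ptpn6 of the same list went the other way, at 275.3, 283.7 and 318.5 CPM on anti-CD40L and 222.9, 263.7 and 250.8 CPM on isotype. Its groups did not overlap, and it was not called (log2 fold change 0.25, edgeR quasi-likelihood F test, adjusted p = 0.0941). The median log2 fold change of the 14 was -0.08.

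On the CRTAM side, the ligand gene Cadm1 was near the limit of detection, with 13 counts on anti-CD40L, 43 in libraries labelled KO and 19 in wild-type isotype libraries. Of 5 tested nectin-family genes Cd96 fell, a receptor of the nectin-like protein CD155 that is carried by T and natural killer cells. As background, 6.46% of all genes tested were called lower. Cd96 stood at 37.6, 40.4 and 42.2 CPM on anti-CD40L and 59.6, 54.8 and 57.8 CPM on isotype, with no overlap (log2 fold change -0.52, SE 0.11; edgeR quasi-likelihood F test, adjusted p = 0.00891). The call was lost without anti-CD40L replicate 1 or wild-type isotype replicate 1 (edgeR quasi-likelihood F test, adjusted p = 0.0518 and 0.0533).

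Of 3 tested genes of cytotoxic CD4+ cells, Prf1 fell, the pore-forming protein perforin. As background, 6.46% of all genes tested were called lower. Eomes and Runx3 were not called (log2 fold change -0.64 and 0.07, edgeR quasi-likelihood F test, adjusted p = 0.391 and 0.864). Gzmb and Tbx21 were too low to test. Gzmb had 24, 18 and 7 counts in anti-CD40L, KO-labelled and wild-type isotype libraries, and Tbx21 had 10, 29 and 17. Prf1 stood at 2.96, 4.36 and 0 CPM in anti-CD40L replicates 1 to 3 and at 9.95, 9.98 and 11.2 CPM in wild-type isotype replicates 1 to 3. The 0 is that of replicate 3, the library that stood apart, and whether its depth accounts for the 0 was not tested. The other anti-CD40L libraries were also below every isotype library (log2 fold change -1.93, SE 0.51; edgeR quasi-likelihood F test, adjusted p = 0.0327). The call was lost in 7 of 18 alternatives, including DESeq2 at an adjusted p of 0.104, limma-voom at 0.0518, each fit without 1 wild-type isotype library at 0.0805 to 0.0935, and the fits without anti-CD40L replicate 1 at 0.0863 or KO-labelled replicate 2 at 0.0517. Against the libraries labelled KO its log2 fold change was -1.85 (edgeR quasi-likelihood F test, adjusted p = 0.046), a call that held in 7 of 18 alternatives, with adjusted p up to 0.154.

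Of 5 tested genes of T cells that rely on SAP, Bcl6 fell, the transcription factor of follicular helper T cells. The share called lower over all genes tested was 6.46%. Bcl6 stood at 39.9, 65.8 and 41.1 CPM on anti-CD40L and 63.3, 106.6 and 87.1 CPM on isotype, so replicate 2 was highest in both groups and the groups overlapped. Bcl6 changed by -0.80 on the log2 scale (SE 0.20; edgeR quasi-likelihood F test, adjusted p = 0.0234), and the call was lost with quality weights at 0.0778 and without anti-CD40L replicate 1 or 3 or isotype replicate 2 or 3, at 0.0703 to 0.111. Bcl6 was lower than in the libraries labelled KO by -0.98 on the log2 scale (edgeR quasi-likelihood F test, adjusted p = 0.0085), which was lost at 0.057 without anti-CD40L replicate 3. Cxcr5, the homing receptor of those cells, stood at 3.94 ± 1.94 CPM on anti-CD40L and 8.04 ± 2.55 CPM on isotype (SD, n = 3 each), and Pdcd1, an inhibitory receptor, at 197.9 ± 39.6 and 257.2 ± 58.7 CPM in the same order. Neither was called (edgeR quasi-likelihood F test, adjusted p = 0.101 and 0.187). Without anti-CD40L replicate 2, Cxcr5 was called at 0.0273, and the fit without the low-count filter called Cxcr5 and Pdcd1, at 0.0213 and 0.00256 (edgeR quasi-likelihood F test, adjusted p). Icos and Maf were not called either (log2 fold change 0.09 and -0.79, edgeR quasi-likelihood F test, adjusted p = 0.556 and 0.23). Il21, Il4 and Zbtb16 were too low to test. They had 4, 0 and 15 counts on anti-CD40L and 0, 2 and 13 in wild-type isotype libraries.

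**Figure D4:**
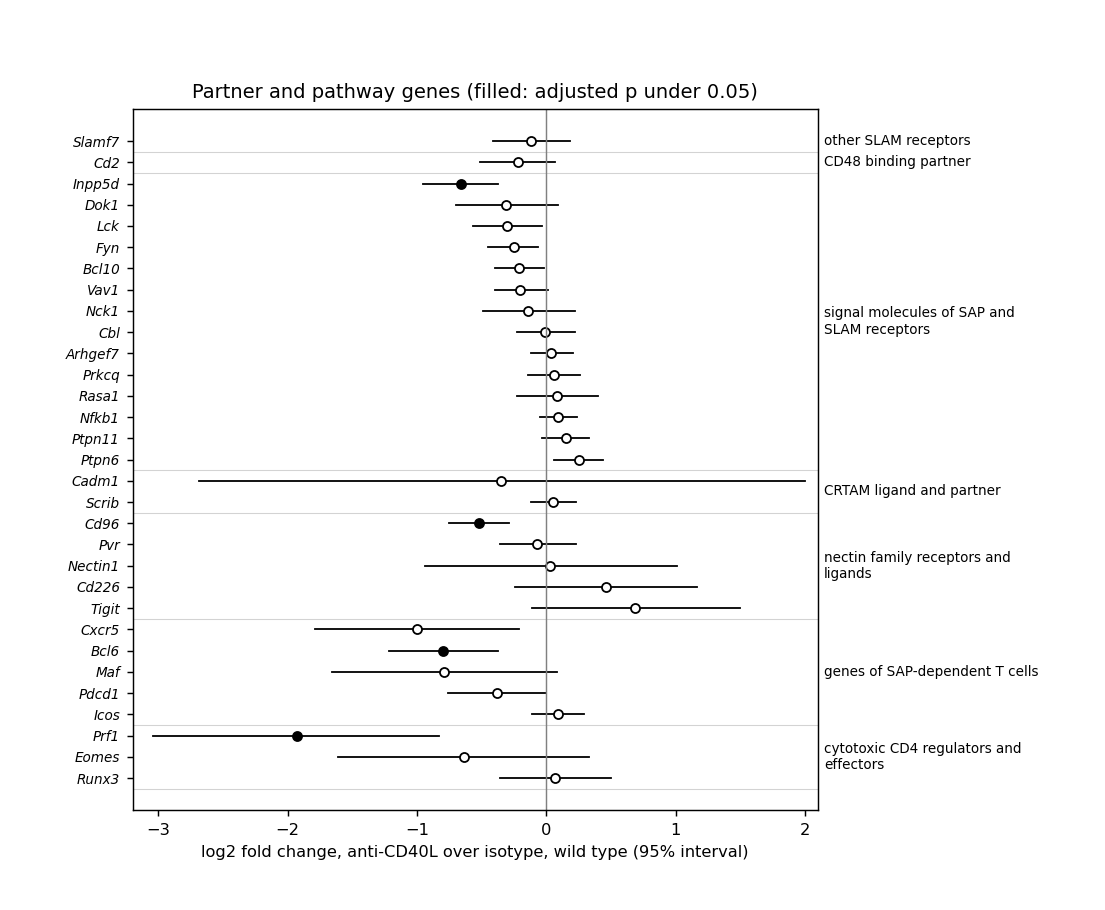
Log2 fold changes on anti-CD40L against isotype in wild-type cells, with 95% intervals, for the 31 tested partner genes grouped by role; filled points have an adjusted p under 0.05 by edgeR. The 4 filled points, Inpp5d, Cd96, Bcl6 and Prf1, all lie below 0.

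Other cell types express several of these genes, and their markers moved between groups at low levels. Summed over 8 B cell genes, the level was 1.72 to 14.3 CPM on anti-CD40L, 7.10 to 18.4 CPM in libraries labelled KO and 12.7 to 38.0 CPM in wild-type isotype libraries, with no gene at 0 in any group. Over 4 natural killer cell genes it was 0 to 4.46, 4.47 to 9.16 and 2.19 to 3.85 CPM in the same order, nearly all of it Klrd1; Klre1 was at 0 on anti-CD40L, and Klre1 and Klrb1c were at 0 in wild-type isotype libraries. Over 2 CD8 T cell genes it was 6.27 to 10.5, 7.61 to 11.9 and 7.32 to 11.1 CPM. Over 2 of 4 genes of natural killer T and gamma delta T cells it was 0.269 to 1.53, 0.217 to 1.27 and 0.229 to 0.538 CPM, with Sox13 at 0 in wild-type isotype libraries. The part of these cells in the changes of Sh2d1a, Crtam and Prf1 was not tested. Over 7 myeloid genes it was 0.304 to 0.764, 1.32 to 12.1 and 1.84 to 2.87 CPM, and over 5 dendritic cell genes 0.382 to 0.507, 0.542 to 2.29 and 0.115 to 0.570 CPM. Cd14, S100a8, S100a9, Itgax and Clec9a were at 0 on anti-CD40L, Cd14 and Clec9a in libraries labelled KO, and S100a8, S100a9, Clec9a and Xcr1 in wild-type isotype libraries.

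The 5 receptor genes lie beside each other on chromosome 1, so the genes around them were examined. Of 27 tested neighbours within 500 kb of a receptor, 1 fell on anti-CD40L and none rose, no larger a share than the 6.46% called lower over all genes tested. Their fold changes ran from -1.16 to 0.79 on the log2 scale with a median of -0.05. The gene that fell was Pea15a, a death-effector-domain protein that binds ERK, whose start lies 429.6 kb from that of Slamf1. It stood at 26.5, 36.5 and 28.1 CPM on anti-CD40L and 55.6, 62.5 and 55.2 CPM on isotype (log2 fold change -0.92, SE 0.13; edgeR quasi-likelihood F test, adjusted p = 0.000859).

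Around Sh2d1a, both tested neighbours within 500 kb had positive log2 fold changes on anti-CD40L, 0.29 and 0.31, and neither was called. The higher was that of Xiap, which encodes an inhibitor of apoptosis (edgeR quasi-likelihood F test, adjusted p = 0.259). Around Crtam, the 3 tested neighbours ranged from -0.26 to 0.23 and none was called on anti-CD40L against wild-type isotype. Against the libraries labelled KO 1 of the 3 was called lower, where 5.04% of all genes tested were. This was Gramd1b, which encodes a cholesterol transfer protein of the endoplasmic reticulum. In wild-type isotype libraries Gramd1b stood at 701.1, 837.1 and 889.3 CPM. Against these its log2 fold change was 0.04 on anti-CD40L and 0.40 in libraries labelled KO, neither called. Gramd1b stood at 830.5, 884.1 and 775.4 CPM on anti-CD40L and 1010, 1057 and 1132 CPM in libraries labelled KO, with no overlap (log2 fold change -0.36, SE 0.10; edgeR quasi-likelihood F test, adjusted p = 0.0392). That call was lost in 7 of 18 alternatives, with adjusted p up to 0.132 without KO-labelled replicate 2. It was also lost without KO-labelled replicate 1 or 3, without anti-CD40L replicate 1 or 3 and without wild-type isotype replicate 2.

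Some of the 7 genes overlap other annotated genes. Ly9 overlaps Cd244a and Slamf6 overlaps the antisense transcript Gm37065, both on opposite strands, Sh2d1a overlaps Tenm1 on the opposite strand by GENCODE gene extent, beyond the end of the transcript counted, and Cd48 overlaps Gm37010 on the same strand. The sources used here do not say whether counting used strand. Reads of such pairs cannot be told apart, though Cd244a held at most 7 counts in any group, and Tenm1 held 17 on anti-CD40L, 12 in libraries labelled KO and 7 in wild-type isotype libraries. In the same order Gm37065 held 20, 61 and 48 counts, and Slamf6 1294, 2164 and 1877. Gm37065 was not called on anti-CD40L against wild-type isotype (log2 fold change -0.97, edgeR quasi-likelihood F test, adjusted p = 0.289).

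**Figure D5:**
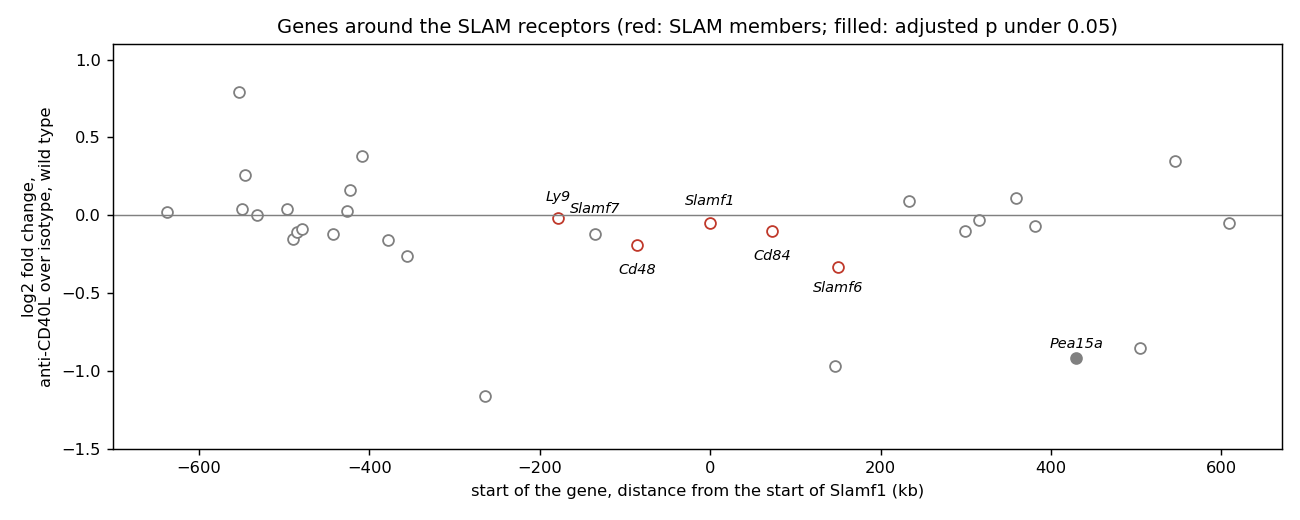
Log2 fold change on anti-CD40L against isotype in wild-type cells (vertical axis) for tested genes within 500 kb of a SLAM receptor, by distance of the gene start from that of Slamf1 in kb (horizontal axis); red points are the 5 receptors and the filled point has an adjusted p under 0.05 by edgeR. Only Pea15a, at -0.92, is filled.

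The genes most like Sh2d1a and Crtam across the 9 libraries were found by the root mean square difference of centred log2 CPM values among 7974 genes with a mean of at least 10 CPM. The 3 nearest to Sh2d1a were Patj, a scaffold protein of epithelial polarity (difference 0.121), Tmem63a, an ion channel gene (0.131), and Paqr7, a membrane progestin receptor gene (0.157). Their log2 fold changes on anti-CD40L were -1.28, -1.15 and -1.15, and in the libraries labelled KO 0.10, 0.17 and 0.06. Among the 3 nearest to Crtam were Itpr2, a calcium release channel of the endoplasmic reticulum (0.093), and Znrf1, a ubiquitin ligase gene (0.122). Their log2 fold changes were -0.88 and -0.93 on anti-CD40L and 0 and -0.11 in the libraries labelled KO. The 9 libraries share these 3 groups, so genes that change on anti-CD40L by a like amount are near each other by this measure.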

How the data were processed

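The authors deposited 1 table of expected counts, not normalized, for 42361 RefSeq transcripts in 9 libraries. All values were multiples of 0.5, tested on the table. Per the submitters' processing notes, CASAVA 1.8.2, HISAT2 2.1.0 and mm10 were used; the sources used here do not say how reads were counted or how strand and multiple alignments were treated. The mRNA library kit was KAPA's HyperPrep, per the labels' protocols.

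Symbols came from RefSeq GRCm38.p6 for 42203 transcripts and GENCODE vM21 for 65; 93 had none. For each gene the transcript with the highest total was kept and counts were rounded, fractions up, giving 25160 genes. The design assumed counts, and these rounded values took their place. After edgeR's expression filter by group, 11256 genes were scaled by TMM and tested by the robust quasi-likelihood F test of edgeR 4.0.16 (R 4.3.3) with all 9 libraries in 1 fit, Benjamini-Hochberg adjusted per comparison at 0.05. CPM are over TMM-scaled library sizes. DESeq2 1.42.0 and limma 3.58.1 served as alternatives. Levels per kb used GENCODE transcript lengths.

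Named genes were the 7 members, a role-based partner list, neighbours within 500 kb (named where called, plus Xiap, named after its value was seen), and the 3 nearest patterns of the 2 most changed members. Of the patterns nearest to Crtam, 1 gene is not reported here. Members and lists were chosen with earlier results of these data known. Nothing in the labels says that libraries of a group are separate animals or cultures; the p-values cover the spread of these libraries alone, and that spread may be technical.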

Additional observations from a re-analysis of the deposited data

How the results depend on the processing

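Calls of Sh2d1a and Crtam on anti-CD40L, against wild-type isotype and against the libraries labelled KO, held in all 18 alternatives, with log2 fold changes of -1.26 to -1.06 and -1.05 to -0.85 in the first comparison. Of 378 values of the 7 genes under alternatives, 360 kept their direction and side of the threshold, 7 passed it newly, all of Slamf6, and 11 changed sign, all of them uncalled values near 0. Leaving out 1 library at a time gave -0.16 to 0.06 for Slamf1 and -0.08 to 0.04 for Ly9 on anti-CD40L. In the libraries labelled KO it gave -0.06 to 0.08 for Ly9 and -0.03 to 0.13 for Crtam, and between anti-CD40L and the libraries labelled KO -0.09 to 0.05 for Ly9; quality weights gave -0.02 for Ly9 in the libraries labelled KO.

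The counts of all genes called moved more. Anti-CD40L against wild-type isotype called 1055 genes, 1698 without the filter and 1592 by DESeq2, and 486 to 1342 without single libraries. The libraries labelled KO against wild type called 0, but 102 without the filter, 42 by DESeq2, 38 with quality weights, 3 in a fit of only the 2 groups, and 0 to 2 without single libraries. Anti-CD40L against the libraries labelled KO called 769, or 1305, 1173, 1458 and 481 under the same changes, and 346 to 1022 without single libraries. Partner genes called were 8 and 5 without the filter against wild-type isotype and against KO-labelled libraries, 1 by DESeq2 for KO-labelled against wild-type libraries, and 1 to 5 and 1 to 3 without single libraries. For these counts the cause was not tested.

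Same-numbered libraries did not deviate together in every pair (correlations of deviations from -0.15 to 0.18), so the numbers were not read as pairs, although each wild-type library on either antibody correlated best with its own number in the other. With the replicate block the first comparison called 954 genes, and no call of the 7 genes changed. Taking the third transcript by total of every gene that has one, NM_001347187 for Slamf6, was an alternative added after seeing the data. Sh2d1a, with 28 to 60 counts per anti-CD40L library, had the fewest counts of the 7 genes, and depth limits its precision.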
